A study of Homo sapiens with 5 samples.

Results

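Rb binding was examined at 40 protein-coding genes of homologous recombination (23 genes), the Fanconi pathway (14 genes) and mismatch repair (3 genes), out of 19962 protein-coding genes (autosomes and X). The members were taken by name from a list of genes with these functions. Parental ZR-75-1 cells, an established line from an oestrogen receptor-positive breast cancer, received the CDK4/6 inhibitor abemaciclib at 500 nM or DMSO alone (0 nM) for 4 days. Rb was profiled by CUT&RUN, in which a nuclease tethered through an antibody cuts out the DNA around a protein for sequencing. Each treatment had 2 Rb libraries, and 1 IgG2a library, made from the DMSO arm, gave the background. A gene counted as bound in a library when a peak of that library overlapped, by at least 1 bp, the stretch from 2000 bp upstream to 500 bp downstream of any of its annotated transcription start sites (TSS, GENCODE 44, GRCh38). The study describes its replicates as separate cultures with separate profiling reactions. In bulk chromatin more bound cells and more Rb per cell cannot be told apart.

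Homologous recombination copies the lost sequence at a broken chromosome from an intact sister duplex. It proceeds through resection of the ends, loading of a recombinase by the BRCA proteins, strand exchange, and the dissolving or cutting of the joined DNA. The Fanconi pathway unhooks crosslinks between the strands: a core complex ubiquitinates the FANCD2 and FANCI pair, nucleases then cut, and recombination completes the repair. Mismatch repair corrects the errors of DNA replication. Many of these genes are expressed mainly in S phase through E2F factors, and Rb in its hypophosphorylated form binds E2F factors at promoters, a state that CDK4/6 inhibitors favour.

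Each peak list was described by a level that can be set side by side between libraries. From the fold enrichment and the p-value of a peak, the whole number of fragments piled up at its summit was recovered, and the level is that pileup divided by the mean coverage of the genome in the same library, as the lowest local background gave it. DMSO replicates 1 and 2 had 1438 and 2582 peaks, whereas abemaciclib replicates 1 and 2 had 13960 and 12234. Genome mean coverage was between 0.521 and 0.677 fragments in the 4 Rb libraries, so the abemaciclib lists were several times longer at a like or lower coverage. The lowest pileup called was 6 fragments in each DMSO list and 5 in each abemaciclib list. A gene without a peak in DMSO may still hold Rb below that limit.

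The comparison of treatments asked whether CDK4/6 inhibition changed where Rb was found among the repair genes. All 40 members were bound in abemaciclib replicate 1 and all 40 in abemaciclib replicate 2, whereas 18 were bound in DMSO replicate 1 and 21 in DMSO replicate 2. No member promoter had a peak in the IgG2a list, which is near the background, since 0.0301% of other protein-coding genes had one and 85.7% of the 589 peaks in that list were not on an autosome or X. The mean was 40 ± 0 genes with abemaciclib and 19.5 ± 2.12 with DMSO (SD, n = 2 each), a difference of 20.5 genes. An exact permutation test gave p = 0.333, two-sided, the smallest value that 2 libraries against 2 allow. Of the other 19922 protein-coding genes, 57.9% and 53.8% were bound in abemaciclib replicates 1 and 2 and 52.6% in both, and 7.79% and 12.4% were bound in DMSO replicates 1 and 2. The size of the difference depended on list length: with only the 1438 strongest peaks of each list, 21 members were bound in each abemaciclib library against 18 and 15 in DMSO replicates 1 and 2, a difference of 4.5 genes. At that length 20 of 40 members were bound in both abemaciclib libraries and 10 in all 4 libraries, against 7.39% and 4.34% of other protein-coding genes.

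**Figure D1:**
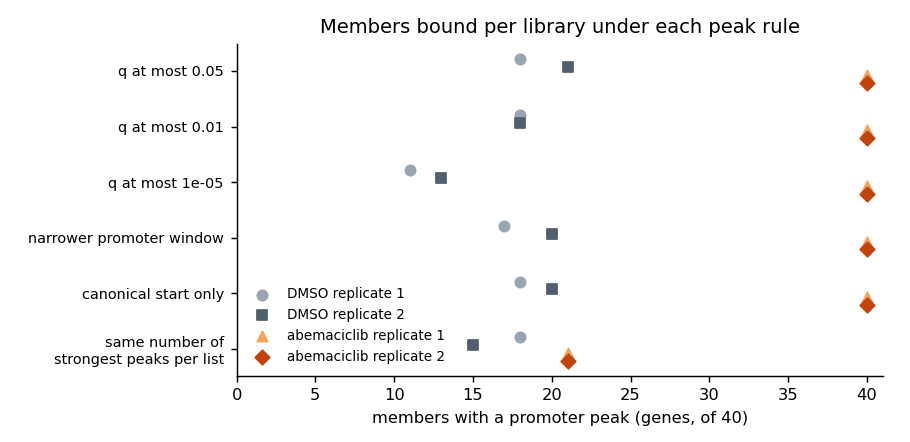
Number of the 40 members (x axis) with a promoter peak in each Rb library (symbols) under 6 rules for peaks or promoters (y axis). With all called peaks both abemaciclib libraries reach 40 and the DMSO libraries 18 and 21; with equal numbers of the strongest peaks the libraries lie between 15 and 21.

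Binding fell into 3 patterns that covered every member. Rb was found in all 4 libraries at 14 genes, in both abemaciclib libraries and 1 DMSO library at 11, and in both abemaciclib libraries but no DMSO library at 15. Among other protein-coding genes these patterns took 6.36%, 7.35% and 38.9%, and 40.8% had no peak in any library, a pattern that 0 of 40 members showed. The 14 genes of the first pattern were XRCC2, XRCC3, RAD51AP1, RAD52, RAD54L, BRIP1, NBN, RBBP8 and EXO1 of recombination, FANCG, FANCL, FANCM and FANCI of the Fanconi pathway, and MSH3 of mismatch repair. The 11 genes of the second were BRCA1, UBE2T, MSH6 and PMS2, which had their DMSO peak in replicate 1, and BARD1, BRCA2, RAD51C, BLM, MUS81, EME1 and FANCC, which had it in replicate 2. The 15 genes bound with abemaciclib only were PALB2, RAD51B, RAD51D, RAD54B, MRE11, RAD50 and GEN1 of recombination and FANCA, FANCE, FANCF, FAAP24, FAAP100, FANCD2, SLX4 and FAN1 of the Fanconi pathway. By pathway, a DMSO peak was present at 16 of 23 recombination genes, 6 of 14 Fanconi genes and 3 of 3 mismatch repair genes. Over all members this was 25 of 40 (62.5%), and among the 10473 other protein-coding genes bound in both abemaciclib libraries it was 26.1%.

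Other repair genes gave a measure for how far this reached. All 33 of a further list of recombination, Fanconi and mismatch repair genes were bound in both abemaciclib libraries, and 11 of the 33 (33.3%) had a DMSO peak as well. Of 16 end joining genes 13 were bound in both abemaciclib libraries and 6 of those 13 had a DMSO peak. For base excision repair the counts were 18 of 20 and 8 of 18, and for nucleotide excision repair 20 of 21 and 4 of 20. Every gene of the related list was thus bound with abemaciclib, as every member was, while 33.3% rather than 62.5% also had a DMSO peak. The members were chosen with earlier results of these libraries known, and the difference between the lists was not tested.

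**Figure D2:**
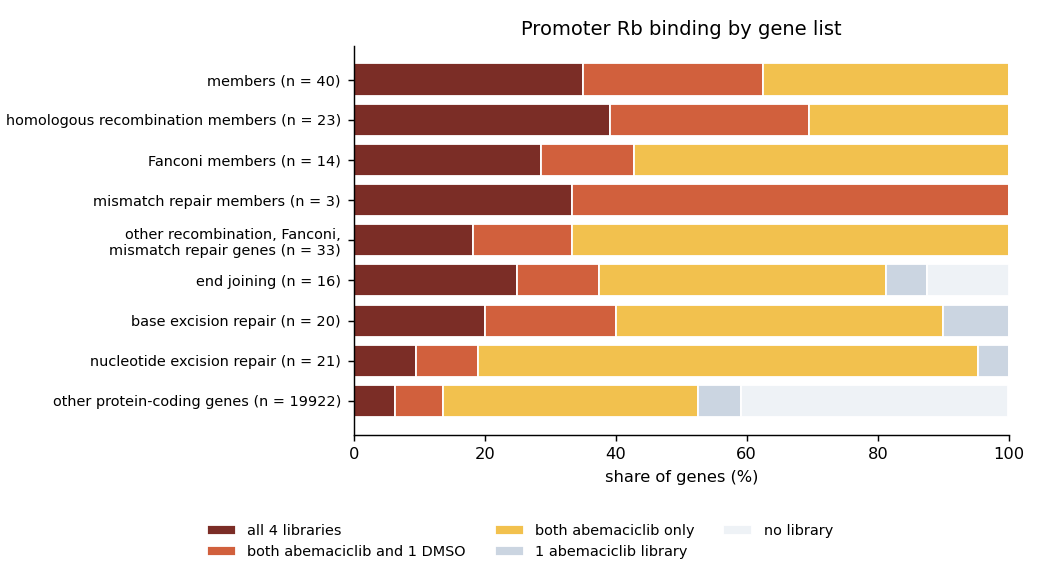
Share of genes (x axis, percent) by the libraries with a promoter Rb peak (colours) for the members, their 3 pathways, 4 further repair lists and all other protein-coding genes (y axis, with gene numbers). All 40 members fall in the 3 patterns with both abemaciclib libraries, against 52.6% of other protein-coding genes.

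Among the genes that start recombination, those bound in all 4 libraries were the resection genes EXO1, RBBP8 and NBN. EXO1, a nuclease that digests long stretches of the broken end and also acts in mismatch repair, had levels of 41.6 and 68.0 in DMSO replicates 1 and 2 and of 300 and 301 in abemaciclib replicates 1 and 2. RBBP8, whose product CtIP starts resection, had 26.2 and 25.1 in DMSO and 255 and 267 with abemaciclib. NBN, a subunit of the complex that recognises broken ends, had 16.9 and 19.2 in DMSO and 105 and 106 with abemaciclib. Both abemaciclib levels lay far above both DMSO levels at each gene, and the ratio of mean levels was 5.49, 10.2 and 5.83, respectively. The DMSO replicates of EXO1 differed more than those of the other two genes, and its ratio ran from 4.42 to 7.24 over single libraries. MRE11 and RAD50, the partners of NBN in that complex, had no DMSO peak, so the 3 subunits differed in their called peaks. With abemaciclib the mean levels of MRE11 and RAD50 were 65.6 ± 8.63 and 43.0 ± 3.86 (SD, n = 2 each), below the 105 ± 0.208 of NBN. The lowest levels called in DMSO replicates 1 and 2 were 9.24 and 8.86. Weaker Rb at MRE11 and RAD50 in DMSO would therefore not be seen.

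The BRCA genes were bound with abemaciclib in each case and irregularly in DMSO. BRCA1, an E3 ligase that directs breaks into recombination, carried Rb at 2 separate starts. At chr17:43169525-43171507, where its most upstream transcripts and the neighbouring NBR1 begin, the levels were 64.0 and 69.1 with abemaciclib and 12.3 in DMSO replicate 1. Around its canonical TSS they were 61.0 and 71.0 with abemaciclib and 10.8 in DMSO replicate 1. A further, weaker region, with abemaciclib levels of 9.15 and 13.4 and no DMSO peak, lay upstream of the canonical TSS. The main 2 regions had nearly the same level. BARD1, the partner of BRCA1, had 119 and 115 with abemaciclib and 17.7 in DMSO replicate 2, and BRCA2, which loads the recombinase, had 160 and 153 and 14.8. PALB2, the bridge between BRCA1 and BRCA2, had 45.7 and 48.0 with abemaciclib and no DMSO peak. PALB2 therefore had the lowest abemaciclib level of these genes, and its promoter lies head to head with that of DCTN5, 156 bp away.

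Of the 5 paralogues of the recombinase, which stabilise its filament, XRCC2 and XRCC3 were bound in every Rb library. XRCC3 had levels of 29.3 and 23.6 in DMSO and 195 and 198 with abemaciclib, and XRCC2 had 15.4 and 10.3 in DMSO and 82.3 and 71.0 with abemaciclib. XRCC2 rested on few DMSO fragments, 10 and 7 at the summit (95% Poisson interval of the smaller, 2.81 to 14.4, counting error only). RAD51C had a peak in DMSO replicate 2 alone, at 23.6. RAD51D and RAD51B had none, and RAD51B, with 53.4 and 44.1, was among the 3 weakest members of the abemaciclib-only pattern by mean rank. The promoter levels of the 5 paralogues thus ranged, on the mean of both abemaciclib libraries, from 27.5 ± 6.37 at RAD51D to 196 ± 1.7 at XRCC3 (SD, n = 2 each).

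The strand exchange genes RAD51AP1, RAD52 and RAD54L were bound in all 4 libraries and RAD54B, a relative of RAD54L, only with abemaciclib, at 68.6 and 46. RAD51AP1, which stimulates strand invasion, had levels of 29.3 and 25.1 in DMSO and 148 and 215 with abemaciclib. This was the widest absolute gap between abemaciclib replicates among the members, though not the widest as a ratio. RAD52, a strand annealing protein, had 26.2 and 16.2 in DMSO and 143 and 113 with abemaciclib. A further, weaker RAD52 region lay upstream of its canonical TSS, at chr12:990566-991669 in abemaciclib replicate 1. Its abemaciclib levels were 44.2 and 48, with no DMSO peak. RAD54L, a translocase that drives strand exchange, had 15.4 and 23.6 in DMSO and 83.9 and 84.4 with abemaciclib. RAD54L had the smallest ratio of mean levels among the 14 genes, 4.31. Of the helicases, BRIP1, which unwinds DNA together with BRCA1, had 40 and 39.9 in DMSO and 329 and 299 with abemaciclib, and BLM, which dissolves joined molecules, had 111 and 97.8 with abemaciclib and 16.2 in DMSO replicate 2. BRIP1 had the highest mean abemaciclib level of the recombination genes, 314 ± 21.3 (SD, n = 2), which its replicate spread does not separate from the 301 ± 0.555 of EXO1.

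None of the genes that cut joined molecules was bound in both DMSO libraries. MUS81 and EME1, the subunits of 1 nuclease, each had a peak in DMSO replicate 2, at 16.2 and 14.8, and GEN1, a resolvase, had none. The EME1 peak stood at a −log10 q of 1.37, just inside the peak caller's limit of q = 0.05, on 10 fragments (95% Poisson interval 4.8 to 18.4). GEN1 was nevertheless among the 3 strongest members of the abemaciclib-only pattern, with levels of 104 and 86.3. The MUS81 region, of 4452 bp, also spanned the promoter of CFL1, and its abemaciclib summits lay 663 and 691 bp from the nearest MUS81 TSS, so its signal cannot be told apart from that of CFL1. The summit in DMSO replicate 2 lay farther off, 973 bp from the nearest MUS81 TSS. With canonical TSS alone MUS81 had no DMSO peak, and 20 rather than 21 members were bound in DMSO replicate 2.

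In the Fanconi core complex, which ubiquitinates FANCD2 and FANCI at a stalled fork, members ranged from among the most strongly bound to the most weakly bound of the 40. FANCG, an adaptor between subunits, had levels of 58.5 and 78.3 in DMSO and 322 and 313 with abemaciclib, in a region at chr9:35079104-35080400. Its peak ranked 18 and 13 in the DMSO lists and 41 and 46 in the abemaciclib lists, so it stood near the top of every Rb library. FANCL, the ligase subunit, had 12.3 and 13.3 in DMSO and 114 and 107 with abemaciclib. FANCM, a translocase that anchors the complex, had 18.5 and 26.6 in DMSO and 157 and 176 with abemaciclib, but these summits lay between 1452 and 1638 bp from its TSS, at the start of FKBP3. At the TSS of FANCM itself there was a second peak, with levels of 96.1 and 88.2 with abemaciclib and of 10.3 in DMSO replicate 2, at a −log10 q of 1.36. With promoters taken from 1000 bp upstream to 100 bp downstream, FANCM had no peak in DMSO replicate 1 and 13 members were bound in all 4 libraries.

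The remaining core genes were bound with abemaciclib, and of these only FANCC had a DMSO peak, at 26.6 in replicate 2, with 218 and 228 in the abemaciclib libraries. FAAP24, which binds DNA together with FANCM, had 48.8 and 42.2 and no DMSO peak. FANCA, a scaffold subunit with levels of 107 and 99.8, and FAAP100, a partner of FANCL with 107 and 86.3, were with GEN1 the 3 strongest abemaciclib-only members, at mean ranks of 1137.5 and 2044 over the abemaciclib lists. FANCF and FANCE were with RAD51B the 3 weakest by that rank: FANCF had 32 and 23 and FANCE had 24.4 and 21.1. FANCE, the lowest of all 40 by level, had 16 and 11 fragments at its summit (95% Poisson intervals 9.15 to 26 and 5.49 to 19.7) and −log10 q values of 15 and 9.42, and FANCF, the lowest by mean rank, had −log10 q values of 14.7 and 7.4. Subunits of the same complex thus spanned mean abemaciclib levels from 22.8 ± 2.33 at FANCE to 317 ± 6.4 at FANCG (SD, n = 2 each), a gap far beyond the spread between replicates.

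UBE2T, FANCD2 and FANCI, the conjugating enzyme and its substrates, had 3 different patterns of called peaks. FANCI had levels of 18.5 and 14.8 in DMSO and 168 and 184 with abemaciclib, the largest ratio of mean levels among the 14 genes, 10.6 (9.08 to 12.5 over single libraries), although its DMSO replicate 2 peak stood at a −log10 q of 1.37. FANCD2, its partner, had 30.5 and 40.3 with abemaciclib and no DMSO peak, although Rb below the limit of the DMSO lists would not be seen. UBE2T had 160 and 165 with abemaciclib and 35.4 in DMSO replicate 1, on 23 fragments, yet no peak within its promoter in DMSO replicate 2. The UBE2T peak ranked 194 among the 1438 of its list, so not every difference between the DMSO replicates concerned peaks near the limit. The nucleases SLX4, a scaffold for structure-specific cutting, and FAN1 had abemaciclib means of 79.2 ± 1.98 and 31.7 ± 6.89 (SD, n = 2 each) and no DMSO peak.

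Each mismatch repair gene had a peak in DMSO replicate 1. MSH3, which recognises loops, had levels of 18.5 and 31.0 in DMSO and 197 and 180 with abemaciclib, a ratio of mean levels of 7.62. MSH6, which recognises single mispairs, had 10.8 in DMSO replicate 1, on 7 fragments, and 131 and 102 with abemaciclib. PMS2, the nuclease subunit, had 13.9 in DMSO replicate 1 and 86.9 and 71.0 with abemaciclib. PMS2 has near-identical pseudogene copies, so the placement of its reads is uncertain, and its TSS lies 223 bp from that of AIMP2 in head-to-head orientation.

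**Figure D3:**
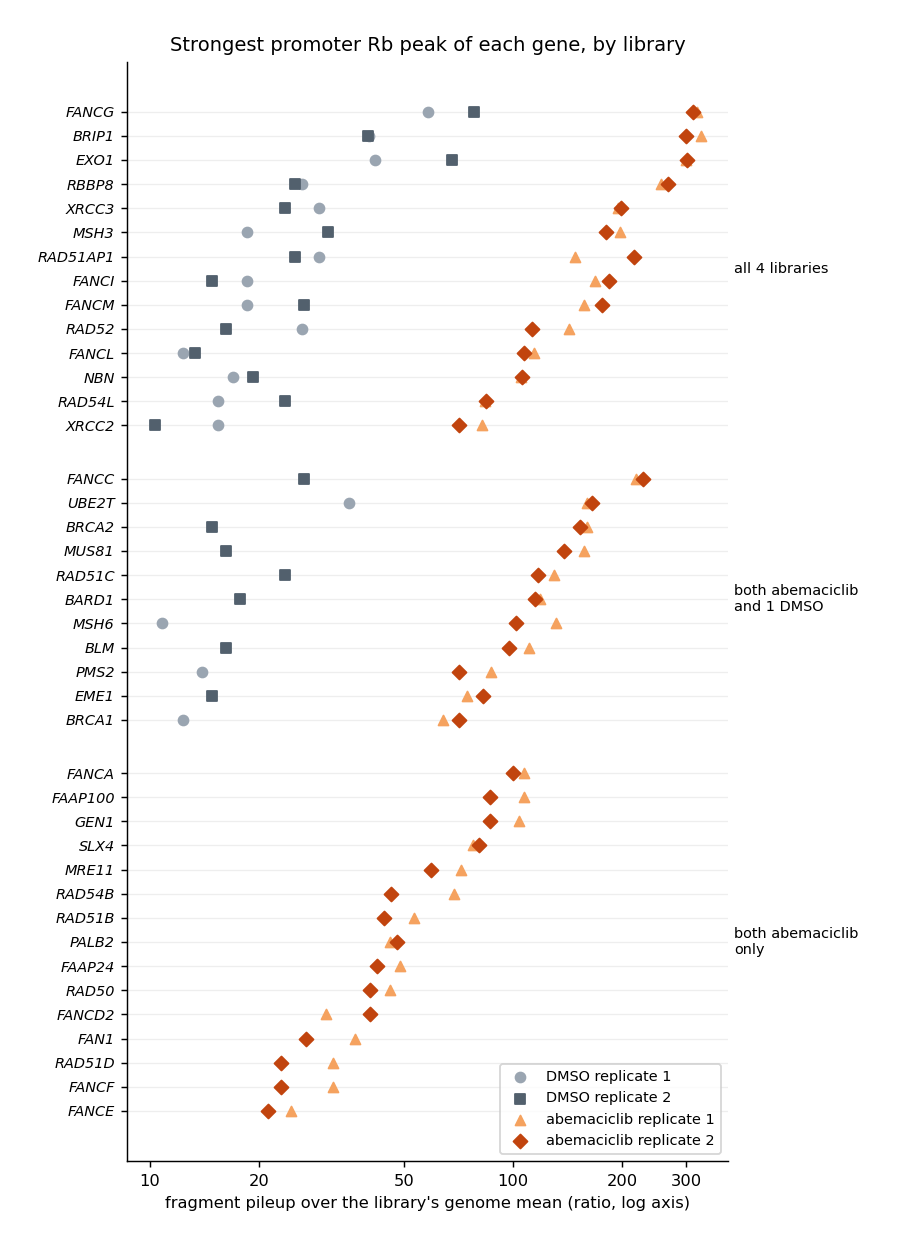
Level of the strongest promoter Rb peak, as fragment pileup over the genome mean of its library (x axis, log scale), for each of the 40 members (y axis) in each library with a peak (symbols), grouped by pattern and sorted by mean abemaciclib level. The abemaciclib symbols of the 14 upper genes lie between 71.0 and 329, to the right of their DMSO symbols at 10.3 to 78.3, and the 15 lower genes reach 107 at most.

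At the 14 members bound in all 4 libraries, both abemaciclib levels exceeded both DMSO levels in 14 of 14, as they did at 100% of the 1267 other protein-coding genes with that pattern. The ratio of mean levels had a median of 7.04 (4.31 to 10.6) at the members and of 7.35 (2.14 to 20.1) at the others. The rise at these repair genes was therefore of the size seen at other promoters already occupied in DMSO. No test was run on the level of a single gene.

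With abemaciclib the members had higher levels than other bound genes, as a description of these lists. Over all members the median level was 107 in abemaciclib replicate 1 and 98.8 in replicate 2, and over the other protein-coding genes bound in both it was 45.7 and 42.2. Of the 40 members, 21 (52.5%) and 20 (50%) had a peak in the top 10% of abemaciclib lists 1 and 2, against 15.7% and 13.8% of those other genes. The order followed the pattern in DMSO: in abemaciclib replicate 1 the median was 162 at members bound in all 4 libraries, 130 at those with 1 DMSO peak and 48.8 at those with none, and in replicate 2 it was 182, 115 and 44.1. Other protein-coding genes followed the same order, with 156, 83.9 and 35.1 in replicate 1 and 152, 78.7 and 32.6 in replicate 2. Within the first pattern members and other genes were near each other, and in the other patterns the members' medians were higher. The 11 members of the middle pattern reached a median rank percentile of 6.73 and 8.75, against 15 and 16.8 for other genes of that pattern.

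**Figure D4:**
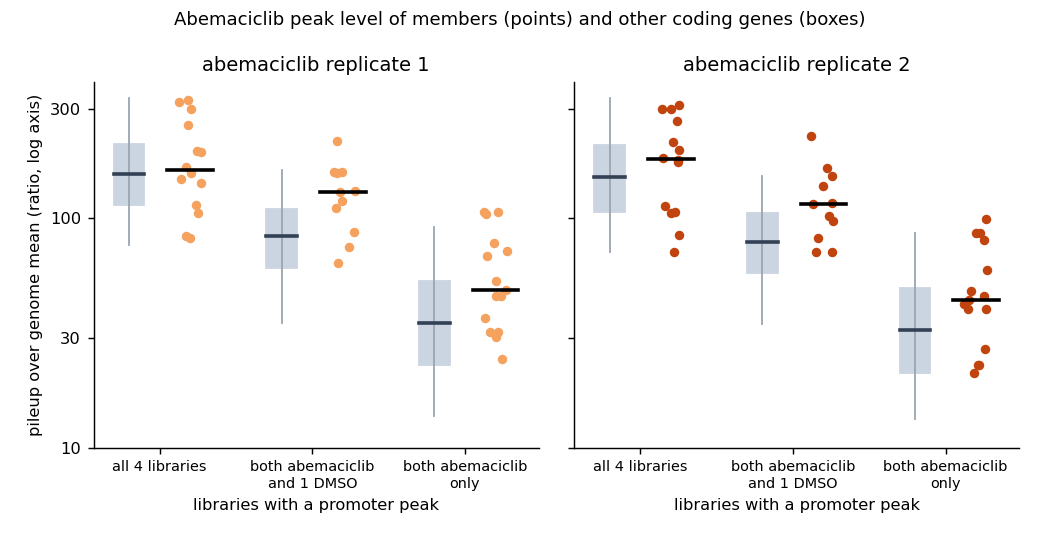
Level of the strongest promoter peak (y axis, pileup over genome mean, log scale) in each abemaciclib library for members (points, black line at the median) and other protein-coding genes (box from the 25th to the 75th percentile, thin line from the 5th to the 95th, dark line at the median), by the libraries with a promoter peak (x axis). In replicate 1 the member medians fall from 162 to 130 and 48.8, beside 156, 83.9 and 35.1 for other genes.

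Promoter peaks lay near a TSS in part through the rule that picked them, at members and at other genes alike. In abemaciclib replicate 1 the summit of the strongest peak lay a median of 86 bp from the nearest TSS of the member, against 118 bp for other protein-coding genes bound in both abemaciclib libraries, and within 500 bp at 38 of 40 members against 92.7% of the others. The exceptions were MUS81 and FANCM, described above. Between its promoters and those of every other annotated gene, no member had a peak in its gene body in any Rb library (0 of 40, over 3.69 Mb of gene length), where 7.11% of the other genes bound in both abemaciclib libraries had at least 1 such peak.

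Several promoters served a second gene. The strongest peak of 19 of 40 members (47.5%) also overlapped the promoter of another protein-coding gene, against 32.4% of other genes bound in both abemaciclib libraries. At 10 members (25%, against 15.8%) the 2 genes started head to head within 1000 bp: BRCA2 with ZAR1L at 145 bp, RAD51C with TEX14 at 557 bp, XRCC3 with ZFYVE21 at 359 bp, RAD51AP1 with C12orf4 at 421 bp, MRE11 with ANKRD49 at 140 bp, EME1 with MRPL27 at 45 bp, GEN1 with SMC6 at 328 bp, FAAP24 with CEP89 at 284 bp, and PALB2 and PMS2 as above. At such promoters a peak cannot be assigned to 1 gene. By pattern, 4 of 14 peaks were shared at members bound in all 4 libraries, 6 of 11 at those with 1 DMSO peak and 9 of 15 at those with none. These counts are small, and the share at other genes was not split by pattern.

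Promoter sequence was then set beside the binding patterns. Promoters from 250 bases before to 50 after the start were read from RefSeq (GRCh38.p14) and matched 37 of 40 members, all but RAD54B, NBN and FANCI. The E2F pattern searched was TTNNCGC, in which each N stood for C or G, on either strand. On the printed strand a match can therefore also read as the reverse complement, GCGNNAA, and neighbouring matches can overlap. It was present in 23 of 37 member promoters (62.2%), against 20.7% of all other protein-coding promoters in the table and 28.2% of those bound in both abemaciclib libraries. By pattern of binding it was present at 10 of 12 members bound in all 4 libraries, 7 of 11 with 1 DMSO peak and 6 of 14 bound with abemaciclib only, against 43.8%, 32% and 24.9% of other genes of the same pattern. The same letters reversed without complement, which keep the base composition, matched 11 of 37 member promoters (29.7%), against 17.8% of the other promoters, and by pattern 3 of 12, 3 of 11 and 5 of 14. In 200 bp centred on the canonical TSS the E2F pattern was present at 20 of 37 members and 12.8% of other genes, whereas in 200 bp centred on the abemaciclib replicate 1 summit it was present at 9 of 37 members (24.3%) against 18.5%, and the reversed letters at 8 of 37 (21.6%) against 13.9%. The falling order by pattern was not kept in these windows: the shares were 58.3%, 72.7% and 35.7% around the TSS and 25%, 36.4% and 14.3% around the summit, in the same order of patterns. The 12.8% covers all other promoters, whereas the 18.5% covers only those with a peak in abemaciclib replicate 1. For other genes bound in both abemaciclib libraries the E2F shares were 17.1% around the TSS and 18.9% around the summit. Beside these shares too, the gap to members was larger around the TSS. At BRCA1, FANCM and MUS81 the summit used lay away from the canonical TSS, in a peak that also covered the start of NBR1, FKBP3 or CFL1, respectively. Their summit windows therefore hold sequence from a neighbouring gene's promoter, and of these members FANCM had the E2F pattern there.

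**Figure D5:**
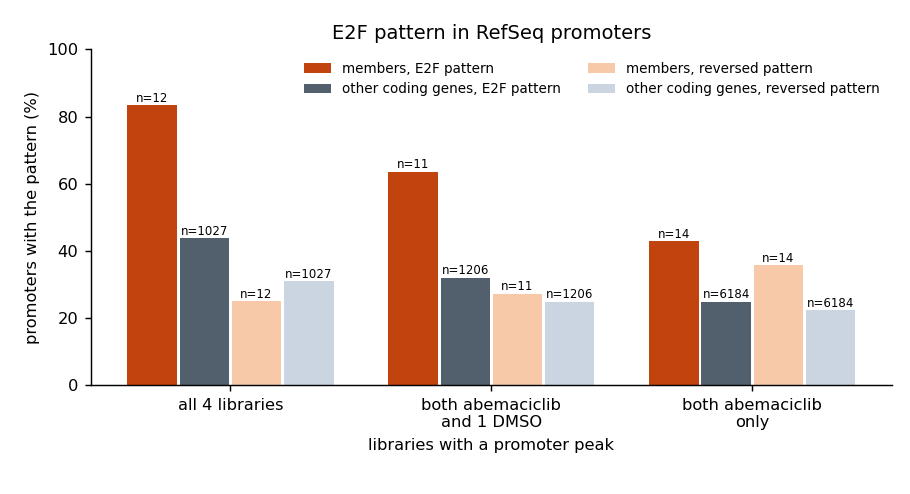
Share of RefSeq promoters with the E2F pattern or with its letters reversed without complement (y axis, percent) at members and other protein-coding genes, by the libraries with a promoter Rb peak (x axis), with the number of promoters above each bar. In this window the E2F share of members falls from 83.3% to 63.6% and 42.9% across the patterns, an order not kept in the 200-bp windows, while the reversed share lies between 25% and 35.7%.

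The stretches that carry the pattern are shown for 9 of the 10 members bound in all 4 libraries that have it, since these genes held Rb without the drug, and for BRCA1 and FANCD2 as members of the other patterns. Each is the gene's strand over 29 bases of RefSeq sequence (GRCh38.p14), with 11 bases on each side of the match, which is in capitals.
FANCG, chr9:35080009-35080037, minus strand: cctcggtggaaGCGGGAAcccaggaggac
FANCL, chr2:58241407-58241435, minus strand: cctccaggatcTTCCCGCcaaggctgggg
XRCC2, chr7:152676103-152676131, minus strand: tggcgttggtgGCGGGAAagttgagtctc
XRCC3, chr14:103715436-103715464, minus strand: ggagcaggacgGCGGGAAgaggagtgcgg
RAD51AP1, chr12:4538858-4538886, plus strand: tctggttttggGCGGGAAttgaaaccgcc
RAD52, chr12:949911-949939, minus strand: gagggaagctgGCGGGAAgtaggaggcag
RAD54L, chr1:46247628-46247656, plus strand: gcgcagcactaTTCCCGCctcttccttgg
BRIP1, chr17:61863509-61863537, minus strand: gggggcgggagGCGGGAAttcgtctcggg
EXO1, chr1:241848198-241848226, plus strand: aaggtcagcctTTCGCGCgctgtgtaggc
BRCA1, chr17:43125394-43125422, minus strand: aacggaaaagcGCGGGAAttacagataaa
FANCD2, chr3:10026424-10026452, plus strand: cgtcgggcctgGCGGGAAagtcgaaaact

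Read on either strand, the form TTCCCGC or its reverse complement GCGGGAA made up 8 of the 9 stretches of members bound in all 4 libraries, and EXO1 had TTCGCGC. The stretches of FANCG and RAD52 lay outside annotated exons and the others overlapped an exon of an annotated transcript. RBBP8 and FANCM were the members of that pattern with a promoter in the table and no match. RBBP8 had a strong peak, at a mean abemaciclib level of 261 ± 8.49 (SD, n = 2). The strongest FANCM peak, at 167 ± 13.7 (SD, n = 2), lay at the start of FKBP3, outside the promoter searched. The 200 bp around its summit in abemaciclib replicate 1 did hold the E2F pattern. At the TSS of FANCM the abemaciclib levels were 96.1 and 88.2. A match at FANCD2 went with no DMSO peak. A match describes the letters in the window and is not evidence of a bound site.

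Other sequence features differed less between members and other genes. CCAAT, the box bound by NFY, was present in 45.9% of member promoters and 42.5% of other promoters, and TTTGAA, the CHR element, in 10.8% and 15.9%. The ratio of observed to expected CpG had a median of 0.91 at members and 0.742 at other promoters, and 36 of 37 member promoters had a ratio of at least 0.6, against 64.5%. CpG-rich promoters in general were often bound: among other promoters with at least 0.6, 72.7% were bound in both abemaciclib libraries and 9.29% in all 4. The corresponding member counts were 36 of 36 and 12 of 36 (33.3%). Of those CpG-rich promoters bound in both abemaciclib libraries, 23 of 36 members (63.9%) and 27.3% of other genes had a DMSO peak. A cut at 0.6 does not match the lists for CpG content. Over all promoters bound in both abemaciclib libraries the median ratio was 0.91 at members and 0.838 at other genes. A part of CpG content in the difference was not tested.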

How the data were processed

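The authors trimmed paired-end reads, aligned them to hg38 with Bowtie2 2.3.4.1, kept duplicates and called peaks for each library with MACS2 2.2.7.1 against IgG controls. Each deposited list gives, per the file layout, a fold enrichment (a ratio of pileup plus 1 to local background plus 1), a −log10 p-value, a −log10 q-value and a summit offset. The lists hold no counts over common regions, so no count model could be run. Duplicates and controls set the fold and the p-value, so neither was compared between libraries directly.

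Pileups were solved from the fold and the p-value (Python 3.11.15, SciPy 1.17.1). At a tolerance of 0.05 fragments 100% of peaks were resolved in every library, and the step recovered all pileups drawn in simulated data. The study gives a range of sequenced clusters per sample but no number for each library. Depth is therefore stated as genome mean coverage (DMSO 0.649 and 0.677, abemaciclib 0.656 and 0.521, IgG2a 0.531, in replicate order), and intervals cover counting error only. Genes sharing a symbol were counted as 1 gene. FIRRM, a gene of a comparison list, was matched under an older symbol.

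Groups and replicate numbers came from the sample titles. Numbers of bound members were compared by a two-sided exact permutation test over the 4 Rb libraries, and everything else is described by counts and medians beside all other protein-coding genes. The members and lists were chosen with earlier results of these data known. Values in every library are given for members bound in all 4 libraries, the mismatch repair genes, and the 3 abemaciclib-only members with the best and the 3 with the worst mean rank. Other members, among them BRCA1, BARD1, BRCA2, PALB2, BLM, FANCC, FANCD2 and UBE2T, were given values after these were seen. Peak thresholds, list length, promoter definition, IgG2a overlap and single libraries were varied. A sequence and a neighbouring gene of 1 member are not reported here.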

Additional observations from a re-analysis of the deposited data

How the results depend on the processing

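Of 51 alternative values over 7 results, 7 were scored as moved. Only the difference in bound members could reverse in sign, and it kept its sign in every setting. Its size was not scored where the permutation test could be run. The difference in bound members was 4.5 genes rather than 20.5 with equal list length, and between 19 and 28 under the other settings. At q of at most 1e-05, 9 members rather than 14 were bound in all 4 libraries and 25 rather than 15 with abemaciclib only. The shares of other protein-coding genes in that setting were 3.16% and 39.6%. With 1438 peaks per list, 2 of the 40 members were bound with abemaciclib only and 14 in no library, against 1.11% and 87.5% of other protein-coding genes. The reversed pattern matched 11 promoters. With the peak nearest to the canonical TSS, the median rank percentile of members was 11.1 rather than 9.58. With coding promoters alone left out, 2 gene body peaks appeared, an alternative chosen after seeing the data, as was the pairing below. The 7 settings for thresholds, windows and IgG2a overlap kept all 40 members bound in both abemaciclib libraries, except the equal list length, which kept 20. Of other protein-coding genes, 7.39% were bound in both at equal list length and 46.8% to 52.6% in the remaining settings. Leaving out 1 library at a time gave differences of 19 to 22 genes, 14 to 21 members bound in every remaining library, 15 to 22 with abemaciclib only and 0 to 0 in no library. For other protein-coding genes these patterns took 6.36% to 12.3%, 40.1% to 44.8% and 40.8% to 46.1%. With the replicate block, libraries of the same number differed by 22 and 19 genes, mean 20.5 (exact permutation p = 0.5, the smallest that 2 pairs allow); nothing in the labels says that the numbers mark a shared day or culture. Peaks of 6 to 10 fragments in DMSO limit which members count as bound there, and 5 libraries, a single cell line and a single time limit the rest.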

Other observations

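RAD51B, one of the longer member genes, had a weak pair of peaks deep inside the gene, near the start of the lncRNA ENSG00000259038. They lay at chr14:68628949-68629181 in abemaciclib replicate 1, with 8 fragments and a level of 12.2, and at chr14:68628942-68629124 in abemaciclib replicate 2, with 7 fragments and a level of 13.4. Their −log10 q values were 3.89 and 3.5, and neither DMSO library had a peak there. They were named after their values were seen.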
